A study of Rattus norvegicus with 2 samples.

Results

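The miR-17-92 and miR-106b-25 clusters, together with their relative miR-92b, were followed in the hippocampus of rats after status epilepticus (SE). Members were all rows of the deposited miRNA table named miR-17, miR-18, miR-19, miR-20, miR-25, miR-92, miR-93 or miR-106, with any letter or arm. This rule gave 11 of the 390 miRNAs of the table, and 10 of them had at least 30 counts in at least 1 library. They were 4 products of the miR-17-92 cluster, 5 of the miR-106b-25 cluster and both arms of miR-92b. The experimental group was made of Wistar rats, 5 months of age, in which SE was set off by electrical stimulation of the right amygdala. Stimulation lasted 20 min and was resumed in animals that did not then meet the study's criteria of SE. Hippocampal RNA was taken 24 hours after SE. The control group was made of Wistar rats of the same age with the same implanted electrodes and sham stimulation. All animals were perfused with saline before the left hippocampus was removed. RNA was pooled within each group before sequencing, so that each group is 1 library, no animal was sequenced by itself, and the sequenced counts hold no replicate against which a difference between the libraries could be checked.

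MicroRNAs are small RNAs that lower the output of mRNAs carrying sites complementary to their seed, the stretch near the 5′ end. The miR-17-92 cluster is a polycistron, a single primary transcript cut into several miRNAs, and Myc and E2F factors are well known to activate it in dividing cells, neural progenitors among them. The miR-106b-25 cluster is a paralog that sits inside Mcm7, a gene for a DNA replication licensing factor. Known targets of these families include the cell cycle inhibitor Cdkn1a and the pro-apoptotic factor Bcl2l11, also called Bim.

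All 11 members were matched to the RefSeq miRNA sequences of the GRCr8 assembly, where their names carry the prefix rno for the rat. The mature sequences are shown because the seed, bases 2 to 8 and here in capitals, puts members of different clusters into the same family. The miR-17 family drew on both clusters.
rno-miR-17-5p: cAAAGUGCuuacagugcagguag
rno-miR-20a-5p: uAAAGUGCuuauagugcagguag
rno-miR-106b-5p: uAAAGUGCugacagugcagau
rno-miR-93-5p: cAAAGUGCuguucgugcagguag
The miR-92 family had members at all 3 loci.
rno-miR-92a-3p: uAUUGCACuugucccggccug
rno-miR-25-3p: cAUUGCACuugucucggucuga
rno-miR-92b-3p: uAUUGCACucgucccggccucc
The other members had seeds of their own.
rno-miR-19b-3p: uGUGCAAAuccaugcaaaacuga
rno-miR-106b-3p: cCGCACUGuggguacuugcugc
rno-miR-25-5p: aGGCGGAGacacgggcaauugc
rno-miR-92b-5p: aGGGACGGgacgcggugcaguguu
No further miRNA of the table shared any of these seeds, among the 297 of its 328 known miRNAs that could be matched to a sequence. Counted from the 5′ end, miR-20a-5p differed from miR-17-5p by U1C and U12C alone, and from miR-106b-5p over the length they share by U10G, U12C and G20A. In the same way miR-92a-3p differed from miR-92b-3p by U10C and G21C over 21 positions. How the counting treated reads that fit several such sequences is not given in the sources used here.

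In GRCr8 the 6 precursors of the miR-17-92 cluster span 785 bases on the plus strand (chr15:98587848-98588632). The 3 of the miR-106b-25 cluster span 494 bases on the minus strand within Mcm7 (chr12:22156641-22157134). Mir92b stands alone on the minus strand of chromosome 2 (chr2:176931653-176931735), 295 bases from Thbs3, the gene of a thrombospondin. Another paralogous cluster on the X chromosome (chrX:137342777-137343647, minus strand) also encodes mature miR-17-5p, miR-19b-3p and miR-92a-3p, letter for letter. The hairpins of Mir17 (chr15:98587848-98587931, plus strand) and Mir106a (chrX:137343570-137343647, minus strand) are shown for this reason, with the mature miRNA they share in capitals.
Mir17: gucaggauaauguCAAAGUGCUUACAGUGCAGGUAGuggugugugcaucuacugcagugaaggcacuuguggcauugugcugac
Mir106a: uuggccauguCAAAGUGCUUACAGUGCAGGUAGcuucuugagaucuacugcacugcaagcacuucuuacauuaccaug
Counts of these 3 miRNAs can therefore come from either chromosome, whereas miR-20a-5p is encoded in GRCr8 by the chromosome 15 cluster only. The products miR-18a, miR-19a, miR-20b, miR-363 and miR-93-3p were not analysed here.

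The deposited counts summed to 5678090 in the SE library and 6703056 in the control library, and levels are given as counts per 1000000 of these sums (CPM). A single count was worth 0.176 CPM after SE and 0.149 CPM in the control group. The log2 ratio is that of the CPM after SE over the CPM in the control group, with a 95% exact Clopper-Pearson interval of the share of reads from the SE library. These intervals cover counting error only, not the spread between animals. Across the 285 miRNAs with at least 30 counts in either library the median log2 ratio was 0.069, and it was -0.079 with edgeR's TMM normalization and -0.17 with unscaled counts, shifts of -0.15 and -0.24 that apply to every ratio below. By abundance, the median log2 ratio was 0.13 for the 80 miRNAs with at least 30 and under 100 counts in the higher library, 0.069 for the 117 with at least 100 and under 1000, and -0.0058 for the 88 with 1000 or more.

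Among the members, miR-20a-5p and miR-92b-5p were the only ones with at least 30 counts that were more than doubled on the CPM scale, and none lay below 0.978 of its control level. A log2 ratio above 1 was thus found for 2 of the 10 members with at least 30 counts, against 9.12% of all miRNAs tested, and a ratio below -1 for 0 of them, against 2.11%. For both the whole interval lay above 1, as for 5.61% of all miRNAs, and miR-20a-5p alone exceeded 2, as did 3.16% of all miRNAs. The interval lay wholly above 0 for 5 of the 10, against 38.2% of all miRNAs, and wholly below 0 for 0 of them, against 24.2%. With TMM the interval lay above 0 for 4 of the 10, against 28.4% of all miRNAs, and below 0 for 2, namely miR-25-3p and miR-92b-3p, against 35.1%. Over the 10 members with at least 30 counts the log2 ratios had a median of 0.58 and began at -0.032. Of these, miR-20a-5p (36 counts after SE, 6 in the control group) and miR-106b-3p (33 and 22) met this minimum in the SE library only. MiR-20a-5p had moreover been chosen by the study for its ratio in these libraries.

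**Figure D1:**
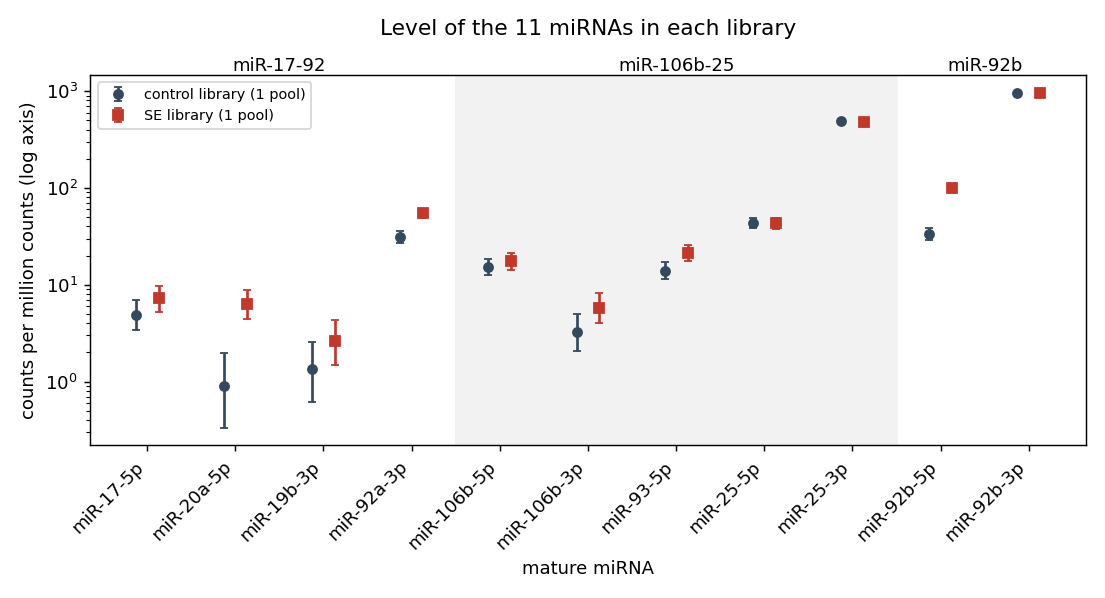
Level of each of the 11 miRNAs in CPM (log axis) in the control library (circles) and the SE library (squares), with 95% exact Poisson intervals that cover counting error only; each group is 1 pool. Points lie apart beyond their intervals for miR-20a-5p (0.895 against 6.34), miR-92a-3p (31.2 against 54.6), miR-93-5p (14.0 against 21.3) and miR-92b-5p (33.4 against 99.2), and the most abundant members, miR-25-3p and miR-92b-3p, lie level.

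The miR-17-92 cluster was higher after SE for each of its 4 measured products, with log2 ratios from 0.55 to 2.82, and their sign was the same under the 4 other scalings. The intervals of miR-17-5p and miR-19b-3p nevertheless included 0. MiR-20a-5p, a product of the middle of the cluster whose family targets Cdkn1a and E2F1 mRNAs, had 36 counts in the SE library (95% exact Poisson interval 25.2 to 49.8) against 6 in the control library (2.20 to 13.1). This was 6.34 CPM against 0.895 CPM, a log2 ratio of 2.82 (interval 1.56 to 4.36) or 7.08-fold (2.96 to 20.6). The lower end of its log2 interval lay under 2, the limit by which the study screened its miRNAs. The study chose miR-20a-5p for its ratio in these same libraries, so that the ratio is a description of them. The study also measured miR-20a-5p by qRT-PCR in groups of rats and reported a significant increase at the sequenced time point. It names no set of rats for this apart from those pooled for sequencing. Those measurements are not part of the counts used here. Of the 80 miRNAs with 30 to 99 counts in the higher library, 12.5% had a log2 ratio above 1 and 5.00% one above 2.

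MiR-92a-3p, the last miRNA of the polycistron and its most abundant measured product, had 310 counts in the SE library against 209 in the control library. Its level was 54.6 CPM against 31.2 CPM, a log2 ratio of 0.81 (interval 0.55 to 1.07) or 1.75-fold. MiR-17-5p, which opens the cluster and shares the seed of miR-20a-5p, had 41 against 33 counts, with a log2 ratio of 0.55 (-0.14 to 1.26). MiR-19b-3p, the measured member of the miR-19 seed family, had 15 against 9 counts, with a log2 ratio of 0.98 (-0.31 to 2.35). At this depth no difference was detectable for either of the latter. The summed counts of the 4 products were 402 and 257, a log2 ratio of 0.88 (0.66 to 1.12), and 366 and 251 without miR-20a-5p, a log2 ratio of 0.78 (0.55 to 1.02).

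The ratio of miR-20a-5p was larger than those of miR-17-5p and miR-92a-3p, whose counts can also come from the X chromosome. The log2 ratio of miR-20a-5p exceeded that of miR-17-5p by 2.27 (exact interval of the log2 odds ratio 0.77 to 3.96) and that of miR-92a-3p by 2.02 (0.72 to 3.58). For miR-19b-3p the difference of 1.85 came with an interval that included 0 (-0.10 to 3.85). Such differences between members do not depend on how the libraries are scaled. Those with miR-20a-5p rest on a miRNA chosen by the study for its ratio in these libraries. Of the reads of miR-17-5p and miR-20a-5p together, miR-20a-5p took 46.8% in the SE library (95% exact Clopper-Pearson interval 35.3 to 58.5) against 15.4% in the control library (5.86 to 30.5). Summed, this near-identical pair had 77 against 39 counts, with a log2 ratio of 1.22 (0.65 to 1.82), a value that does not depend on how reads were split between them.

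In the miR-106b-25 cluster the abundant miR-25 lay level between the groups and the less abundant products were higher after SE or close to the control. MiR-25-3p, a member of the miR-92 seed family, had 2750 counts in the SE library against 3319 in the control library. This was 484 CPM and 495 CPM, a log2 ratio of -0.032 (interval -0.11 to 0.041), or -0.18 with TMM (-0.25 to -0.11). Its other arm, miR-25-5p, had 245 against 291 counts, with a log2 ratio of -0.0088 (-0.26 to 0.24).

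MiR-93-5p, of the miR-17 seed family, had 121 counts in the SE library against 94 in the control library, which gave a log2 ratio of 0.60 (interval 0.20 to 1.01) or 1.52-fold, and with unscaled counts the interval included 0 (0.36, -0.036 to 0.77). MiR-106b-5p, of the same family, had 100 against 103 counts, with a log2 ratio of 0.20 (-0.21 to 0.61), and with unscaled counts its ratio turned to -0.043. MiR-106b-3p, the less abundant arm of the same precursor, had 33 against 22 counts, with a log2 ratio of 0.82 (0.0027 to 1.67), an interval that just cleared 0 with this scaling and included 0 with TMM (-0.15 to 1.52). The cluster summed to 3249 and 3829 counts, a log2 ratio of 0.0024 (-0.065 to 0.070), and miR-25-3p made up 84.6% of it in the SE library against 86.7% in the control library. Without either arm of miR-25 the sums were 254 and 219, a log2 ratio of 0.45 (0.19 to 0.72).

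MiR-92b, a single gene outside both clusters whose 3p arm is known from neural precursors, differed between its arms. The 3p arm carries the miR-92 seed, and it had 5421 counts in the SE library against 6453 in the control library, which is 955 CPM and 963 CPM. Its log2 ratio was -0.012 (interval -0.064 to 0.040), or -0.16 with TMM (-0.21 to -0.11). The 5p arm had 563 counts in the SE library against 224 in the control library, 99.2 CPM against 33.4 CPM. Its log2 ratio was 1.57 (1.34 to 1.80), or 2.97-fold (2.54 to 3.48), and the interval lay wholly above 1. The arms are shown in capitals on the hairpins of Mir92b (chr2:176931653-176931735, minus strand) and, for contrast, of Mir25 (chr12:22156641-22156724, minus strand), the 5p arm being the first capital stretch in each.
Mir92b: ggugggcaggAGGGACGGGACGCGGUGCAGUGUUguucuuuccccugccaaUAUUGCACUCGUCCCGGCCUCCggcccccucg
Mir25: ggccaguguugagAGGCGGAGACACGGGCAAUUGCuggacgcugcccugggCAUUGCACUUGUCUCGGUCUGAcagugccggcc
The 5p arm made up 9.41% of the miR-92b reads after SE (8.68 to 10.2) and 3.35% in the control group (2.94 to 3.82), a difference of 1.58 in log2 ratio between the arms (1.35 to 1.82). For miR-25 the 5p arm made up 8.18% (7.22 to 9.22) and 8.06% (7.19 to 8.997), and the arms differed by 0.023 (-0.24 to 0.28). For miR-106b the 3p arm made up 24.8% (17.7 to 33.0) and 17.6% (11.4 to 25.4), and the arms differed by 0.63 (-0.30 to 1.58). Both arms of 55 known miRNAs had at least 30 counts. The arms of miR-92b were the fifth farthest apart of these, while the median size of the difference was 0.38.

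**Figure D2:**
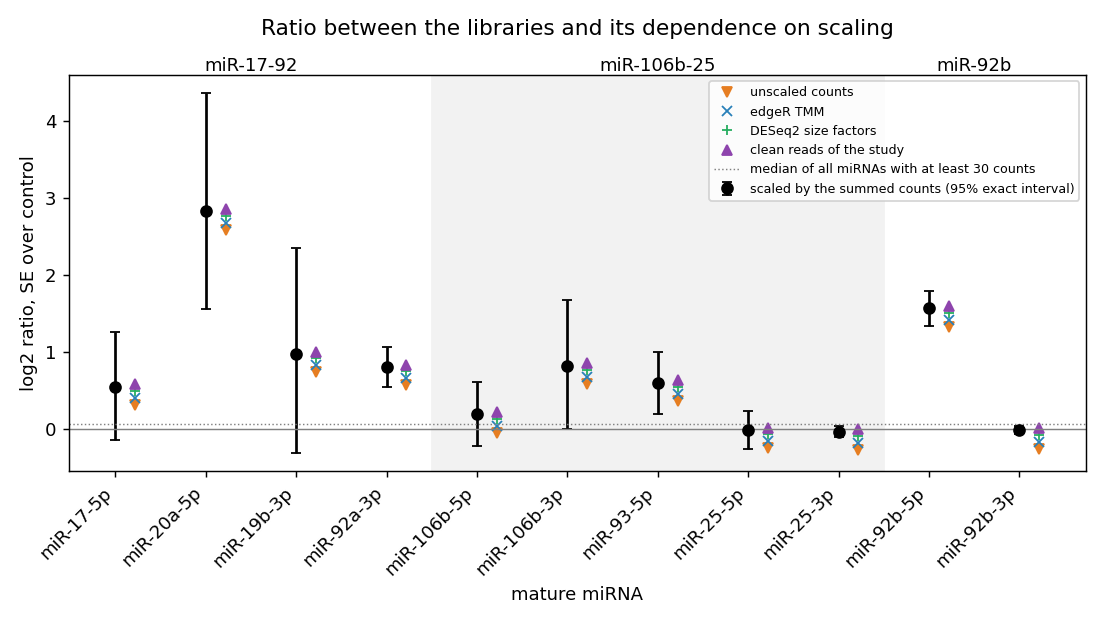
Log2 ratio of each miRNA, SE over control, scaled by the summed counts (black, with 95% exact intervals for counting error) and beside it the values under 4 other scalings; the dotted line is the median of all miRNAs with at least 30 counts (0.069). MiR-20a-5p (2.82) and miR-92b-5p (1.57) stand above the rest, and the other scalings move all 11 alike.

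Members of the same seed family did not all share a ratio. In the miR-17 family the log2 ratios ran from 0.20 for miR-106b-5p to 2.82 for miR-20a-5p, with miR-17-5p and miR-93-5p between them. The 4 members summed to 298 counts in the SE library against 236, a log2 ratio of 0.58 (interval 0.32 to 0.83). Without miR-20a-5p it was 0.43 (0.17 to 0.69). MiR-20a-5p made up 12.1% of the family's reads after SE (8.61 to 16.3) and 2.54% in the control group (0.939 to 5.45). The share of miR-106b-5p was 33.6% in the SE library (28.2 to 39.2) against 43.6% in the control library (37.2 to 50.2), while those of miR-93-5p (40.6% and 39.8%) and miR-17-5p (13.8% and 14.0%) lay within counting error of each other. MiR-20a-5p, chosen by the study for its ratio in these libraries, thus exceeded miR-106b-5p by 2.63 in log2 ratio (1.28 to 4.22) and miR-93-5p by 2.22 (0.87 to 3.81). By contrast, miR-93-5p exceeded miR-106b-5p by 0.41 (-0.18 to 0.99) and miR-17-5p did so by 0.36 (-0.46 to 1.18). Both of these intervals included 0.

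In the SE library the miR-92 family had 28.5 times the counts of the miR-17 family, at 1494 CPM against 52.5 CPM. In the control library it had 42.3 times the counts. How evenly different sequences were captured in the libraries was not tested, so these are ratios of counts only. Scaled by the summed counts, the total of the miR-92 family lay level between the libraries, with 8481 against 9981 counts and a log2 ratio of 0.0045 (-0.037 to 0.046). With TMM its most abundant members, miR-92b-3p and miR-25-3p, had log2 ratios of -0.16 (-0.21 to -0.11) and -0.18 (-0.25 to -0.11). Within the family miR-92a-3p stood apart from both of its relatives. Its log2 ratio exceeded that of miR-92b-3p by 0.82 (0.56 to 1.09) and that of miR-25-3p by 0.84 (0.57 to 1.11). It made up 3.66% of the family's reads after SE (3.27 to 4.08) and 2.09% in the control group (1.82 to 2.39). MiR-25-3p and miR-92b-3p, which lie on different chromosomes, differed in log2 ratio by 0.020 (-0.070 to 0.11).

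**Figure D3:**
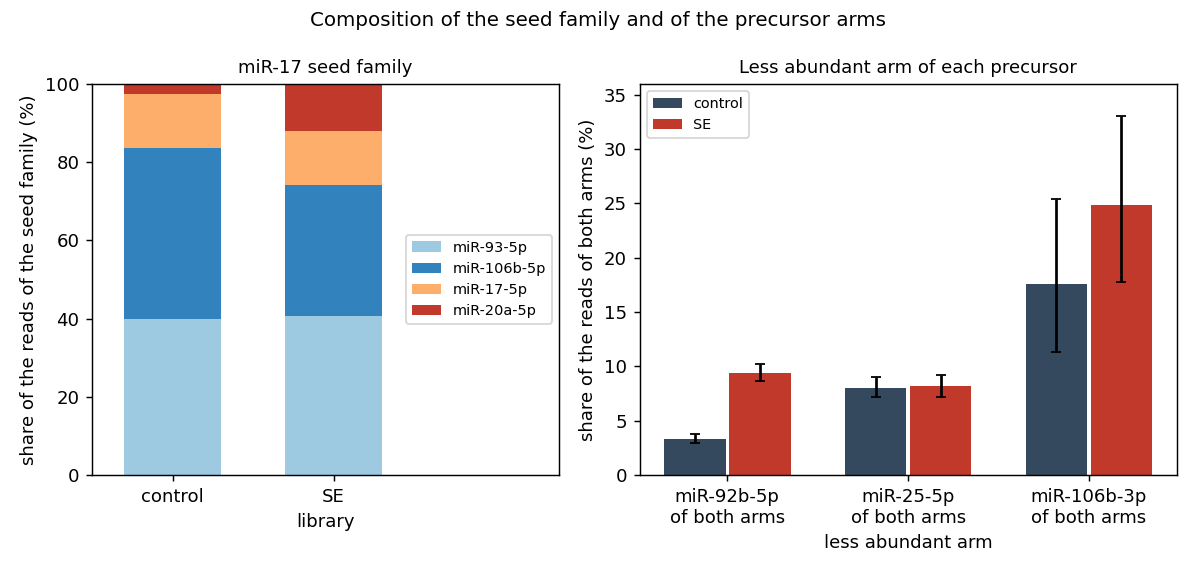
Left, the share of the reads of the miR-17 seed family (in percent) taken by each of its 4 members in the control and the SE library; right, the share of the less abundant arm among the reads of both arms of miR-92b, miR-25 and miR-106b, with 95% exact Clopper-Pearson intervals. The share of miR-20a-5p is 2.54% in the control library and 12.1% in the SE library, that of miR-92b-5p is 3.35% and 9.41%, and that of miR-25-5p is 8.06% and 8.18%.

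Between the paralogous clusters, the summed miR-17-92 products had a higher log2 ratio than the summed miR-106b-25 products by 0.88 (exact interval 0.64 to 1.12). The difference was smaller without miR-25. When both arms of miR-25 were left out the difference was 0.43 (0.076 to 0.79), and when miR-20a-5p was left out as well it was 0.33 with an interval that included 0 (-0.029 to 0.69). Over all 55 pairs of members, the interval of the difference in log2 ratio excluded 0 for 24. It did so for 8 of the 10 pairs with miR-20a-5p, for 7 of the 10 with miR-92b-5p and for 0 of the 10 with miR-19b-3p. Ordered by log2 ratio, no member differed from the next beyond counting error. These 55 intervals are not corrected for their number, and those that share a member are not independent. The study chose miR-20a-5p for its ratio in these same libraries, so that the differences of its pairs only describe them.

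By counts, the order of the levels within each library was led by miR-92b-3p, then miR-25-3p, in both groups. MiR-92b-3p had 1.97 times the counts of miR-25-3p after SE (1.88 to 2.06) and 1.94 times in the control group (1.86 to 2.03). MiR-92b-5p came next after SE, above miR-92a-3p and miR-25-5p. In the control group it lay below miR-25-5p and did not differ from miR-92a-3p beyond counting error. MiR-20a-5p was the least abundant member in the control group, where it did not differ from miR-19b-3p beyond counting error. In the SE library it stood between miR-17-5p and miR-106b-3p and differed from neither beyond counting error. Among the 328 known miRNAs of the table miR-20a-5p ranked 244th by counts in the SE library and 322nd in the control library, and miR-92b-3p ranked 36th and 35th.

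**Figure D4:**
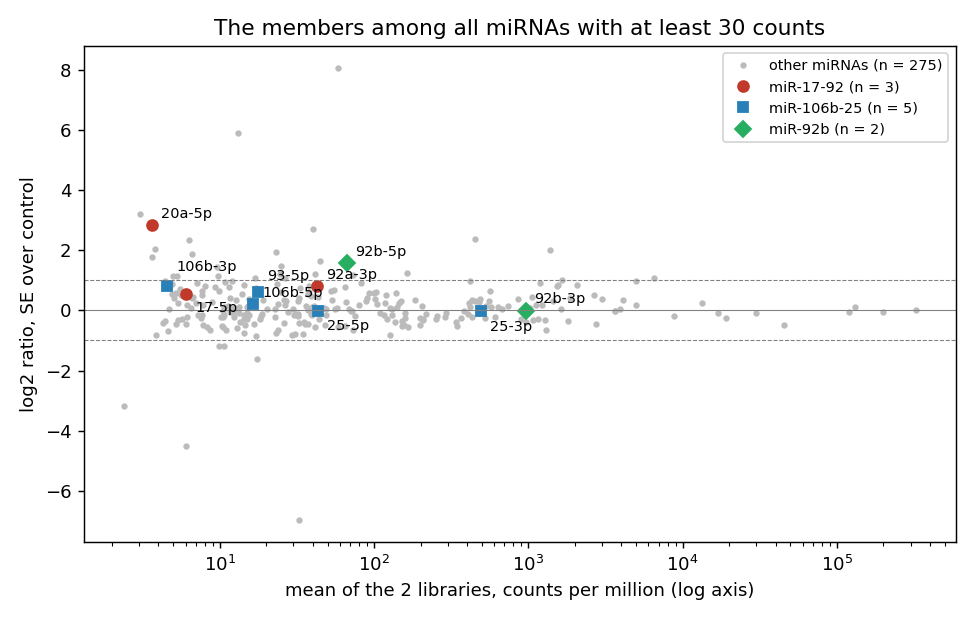
Log2 ratio, SE over control, against the mean level of both libraries (CPM, log axis) for the 285 miRNAs with at least 30 counts in either library; dashed lines mark log2 ratios of 1 and -1. MiR-20a-5p (2.82) and miR-92b-5p (1.57) lie above 1, and the other 8 members shown lie between -0.032 and 0.82.

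By log2 ratio the known miRNAs nearest to miR-20a-5p, with at least 30 counts, were miR-345-3p (393 and 72 counts, log2 ratio 2.69), miR-874-3p (31 and 4 counts, 3.19) and miR-341 (4297 and 975 counts, 2.38). With 2 libraries this likeness is that of a single ratio. MiRNAs known to be repressed by Myc, among them let-7, miR-26, miR-29 and miR-30, were measured for 20 of the 21 listed. None of the 20 had a log2 ratio beyond 1 in either direction (9.12% of all miRNAs were above 1 and 2.11% below -1), and their median was -0.052, against 0.069 over all miRNAs tested. Both medians shift alike with the scaling. Intervals lay above 0 for 6 of the 20, such as miR-16-5p (950 and 747 counts, log2 ratio 0.59), and below 0 for 7, such as miR-29a-3p (98580 and 139209 counts, -0.26), against 38.2% and 24.2% of all miRNAs. These counts of intervals, and those of the next list, hold for scaling by the summed counts only. Among the 6 were let-7c-5p (0.020, 0.017 to 0.022) and let-7i-5p (0.031, 0.0055 to 0.057), which the TMM shift of -0.15 puts below 0. Other miRNAs linked to the cell cycle through p53, E2F or the retinoblastoma protein were measured for all 13 listed, 10 of them with at least 30 counts, and 4 of the 13 are also on the list of miRNAs repressed by Myc. Of these 10, 0 had a log2 ratio beyond 1 in either direction (9.12% and 2.11% of all miRNAs), the interval lay above 0 for 6 and below 0 for 1 (38.2% and 24.2% of all miRNAs), and the median was 0.51. MiR-34c-5p, a p53 target, had 12579 and 7462 counts and the highest log2 ratio of the 10, 0.99 (0.95 to 1.03). Its ratio became 1.02 and so passed 1 with the clean reads of the study as depth. It was 0.93 with DESeq2's size factors, 0.84 with TMM and 0.75 with unscaled counts. These scalings of the list were chosen after seeing the data. The other arm, miR-34c-3p, had 6 and 15 counts, under the minimum, and a log2 ratio of -1.08 (-2.74 to 0.37). The interval below 0 was that of miR-192-5p (3171 and 4381 counts, log2 ratio -0.23). MiR-222-3p, which represses the cell cycle inhibitor Cdkn1b, had 8874 and 5574 counts, and its log2 ratio was 0.91 (0.86 to 0.96).

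Markers of neurons, erythrocytes, microglia, leukocytes and oligodendrocytes were present in both libraries, and their log2 ratios differed within and between the lists. Of 7 neuronal miRNAs 6 were measured, each with at least 168 counts in both libraries, and their log2 ratios ran from -0.49 for miR-128-3p to 1.21 for miR-212-3p. Erythrocyte miRNAs were measured for 3 of the 4 listed, summing to 39.4 CPM after SE and 17.8 CPM in the control group. Among them miR-451-5p had 196 against 100 counts, with a log2 ratio of 1.21 (0.86 to 1.57), miR-144-5p had 16 against 5 (1.92, 0.40 to 3.72) and miR-144-3p had 12 against 14 (0.017, -1.23 to 1.24). MiR-92a, miR-93 and miR-106b, among other members, are also made in blood cells. MiR-25-3p, of the same cluster as miR-93 and miR-106b, had a log2 ratio of -0.032 (-0.11 to 0.041), or -0.18 with TMM. The part of blood in the ratios of the members, that of miR-25-3p included, was not tested. Microglial and leukocyte miRNAs, 3 of 6 measured, summed to 58.8 CPM after SE and 65.0 CPM in the control group, with log2 ratios from -0.52 to 0.0073, and oligodendrocyte miRNAs summed to 2000 CPM and 2073 CPM, with log2 ratios from -0.51 for miR-219-5p to 1.14 for miR-219-1-3p. Endothelial miR-126 was not analysed here. In pooled tissue, more cells of a type and more of a miRNA per cell cannot be told apart.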

How the data were processed

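Small RNA of rat hippocampus was sequenced as 1 pooled library per group. The authors discarded low-quality, short and single-read sequences, mapped the rest to the rat genome and compared them with known miRNAs; the submitters' notes name rn5, and the aligner and miRBase release are not given in the sources used here. The labels describe an array preparation (biotinylated cRNA) and a different sequencer from the methods of the study; the values were taken as small RNA sequencing counts, as those methods describe. The authors deposited whole-number read counts per miRNA, not scaled, although a line above the table calls for scaled values. Their p-value columns were not used.

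Counts were divided by the sum of all counts of each library. In ratios a count under 3 was replaced by 3, which touched no member. The intervals are 95% exact Poisson, Clopper-Pearson and conditional odds ratio intervals for counting error only. They treat reads as independent, which reads copied by PCR are not, so they can be too narrow. No p-value was computed, because each group is 1 library. A miRNA counted as past a limit with at least 30 counts in either library and a log2 ratio beyond 1. The text names every member, the 3 known miRNAs nearest to miR-20a-5p by log2 ratio, and examples from the lists. Members and lists were chosen with earlier results of these data known, and the examples from the lists after their values were seen. Alternatives were the clean reads of the study, unscaled counts, TMM (edgeR), size factors (DESeq2), a pseudocount of 1, minimums of 10, 100 or no counts, limits applied to the whole interval, and sums without the most abundant member. Sums without miR-20a-5p were added after the data were seen. Sequences and gene positions are those of RefSeq for GRCr8, which is not the build of the deposited data. On counts simulated by Poisson draws for 390 miRNAs, 95.0% of the intervals of the 300 with at least 30 counts held the true value. Such draws hold no spread between animals and no PCR duplication, so they check the computation of the intervals only. Python 3.11.15, scipy 1.17.1, R 4.3.3, edgeR 4.0.16 and DESeq2 1.42.0 were used.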

Additional observations from a re-analysis of the deposited data

How the results depend on the processing

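No paired analysis was possible because RNA was pooled into 1 library a group, and for the same reason no replicate could be left out. The scalings move every log2 ratio alike, by 0.031 with the clean reads, -0.059 with DESeq2's size factors, -0.15 with TMM and -0.24 with unscaled counts, and differences between members stay as they are. The number of members above a log2 ratio of 1 was 2, and 1 with at least 100 counts, where miR-20a-5p could no longer pass. The summed miR-17-92 products had a log2 ratio of 0.65 with unscaled counts and of 1.18 without miR-92a-3p. The summed miR-106b-25 products had one of -0.24 with unscaled counts, -0.15 with TMM and 0.21 without miR-25-3p. Of all miRNAs, 26 lay above 1 and 6 below -1, and 9 above 2 and 3 below -2. Above 1 there were 16 with unscaled counts, 43 with at least 10 counts, 16 with at least 100, 49 with no minimum and 16 by the whole interval. Below -1 there were 12 with unscaled counts, 21 with at least 10 counts, 2 with at least 100 and 25 with no minimum. Above 2 there were 21 with at least 10 counts or no minimum, 5 with at least 100 and 4 by the whole interval, and below -2 there were 9, 9 and 1 under the same minimums. Fewer or more miRNAs could pass under these minimums. All 55 differences between members with a pseudocount of 1 lay within their intervals. Depth limits miR-20a-5p, miR-19b-3p, miR-17-5p and miR-106b-3p, each with at most 41 counts in a library.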

Other observations

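For the 55 known miRNAs with at least 30 counts for both arms, the arms were ordered by abundance over both libraries together. The less abundant arm had the higher log2 ratio for 31 and the lower one for 24, with a median difference of 0.028. The difference went beyond 1 in size for 10 of them, miR-92b among these. The arms farther apart than those of miR-92b were those of miR-345 (-3.33, less abundant minus more abundant arm), miR-365 (2.50), miR-150 (2.39) and miR-99b (-1.86), in either direction. In each of these the less abundant arm had at most 177 counts in a library, against 563 for miR-92b-5p. Within the SE library the order of the arms was reversed for miR-365 (60 counts for 5p, 41 for 3p) and miR-150 (59 for 3p, 48 for 5p). Within the control library it was reversed for miR-345 (90 for 5p, 72 for 3p).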
